A study of Mus musculus with 8 samples.

Results

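The effect of Tyro3 on gene expression was compared between 2 backgrounds of a mouse mammary carcinoma line. In parental 4T1 cells the effect was the log2 fold change of cells overexpressing Tyro3 over control cells, and in 4T1 cells resistant to anti-PD1 it was the log2 fold change of control resistant cells over cells in which Tyro3 was knocked out. Both effects thus run from less Tyro3 to more Tyro3, and the quantity reported for each gene is the first minus the second, called the difference between backgrounds. A positive difference means that the fold change with more Tyro3 was more positive, or less negative, in the parental background. All 8 libraries of the series entered, as 4 groups of 2, and 14513 of 24677 genes passed the filter on low counts. The difference was called, at an adjusted p under 0.05 by edgeR's quasi-likelihood test, for 6776 of them.

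The cells were 4T1, a mouse line of triple-negative breast cancer, and all groups shared the same medium with 10% fetal bovine serum and had no drug or antibody added. The parental group carried the control genotype. The overexpressing group, Tyro3 OE in the labels, was made from parental cells. The resistant group carried the control genotype, and the knockout group, Tyro3 KO in the labels, was made from resistant cells. Anti-PD1 antibodies block an inhibitory receptor on T cells, and T cells were not part of these cultures. The vector and promoter of the overexpression, the edit of the knockout and whether a line was a single clone are nowhere stated in the sources used here, so effects of Tyro3 and other differences between the lines cannot be told apart. Nothing in the labels says that the libraries of a group were grown as separate cultures. The p-values then cover only how much these libraries vary, and that may be technical variation.

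Tyro3, Axl and Mertk make up the TAM family of receptor tyrosine kinases, whose ligands are the vitamin K dependent proteins Gas6 and Pros1. In macrophages and dendritic cells TAM receptors are known to dampen Toll-like receptor and cytokine signalling through the type I interferon receptor and the SOCS proteins. In carcinoma cells they are known for signals of survival and migration. Type I interferon acts through JAK kinases and STAT transcription factors on a set of genes that carry the interferon-stimulated response element, while NF-kB, with its inducible cofactors, drives chemokine and acute phase genes.

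Depth was 18001482 to 27261282 counted reads per library. By their correlation across genes, knockout libraries were nearer to parental ones (r = 0.981 to 0.982) than to the resistant ones they were labelled as derived from (0.932 to 0.936). Overexpressing libraries were also nearer to resistant ones (r = 0.963 to 0.966) than to parental ones, their source (0.957 to 0.9585). Cytosolic ribosomal protein genes took 8.81% and 9.12% of the reads in the resistant libraries and 5.10% to 6.08% elsewhere. Mitochondrially encoded genes took 3.17% and 2.92% of them in the resistant libraries and 1.90% to 2.36% elsewhere. Markers of macrophages summed to between 27.6 and 65.0 CPM in a library, those of neutrophils to between 3.58 and 33.1 CPM, those of endothelium to between 7.42 and 11.5 CPM and those of T and B lymphocytes to between 0.202 and 0.541 CPM. The macrophage and neutrophil sums were lowest in the resistant libraries. Fibroblast and pericyte markers summed to 97.4 to 107 CPM in parental and knockout libraries and to 176 to 213 CPM in resistant and overexpressing ones. Markers of 4T1 epithelium summed to 532 and 496 CPM in the resistant libraries and to 782 to 939 CPM elsewhere. Of these markers, Krt8 stood between 217 and 540.2 CPM and Krt18 between 257 and 442 CPM. Epcam stayed at or below 1.32 CPM and Cdh1 at or below 4.01 CPM in every library. In bulk libraries a change in all cells and a change in the share of cells cannot be told apart.

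Tyro3 itself (ENSMUSG00000027298, chromosome 2, 119797733 to 119818104, plus strand, coordinates in GRCm38) was the check of the labels. It stood at 25.6 and 24.4 CPM in parental, 107 and 103 CPM in overexpressing, 20.7 and 21.2 CPM in resistant and 3.81 and 3.99 CPM in knockout libraries. The order was knockout, resistant, parental, overexpressing, and no group overlapped with another. The group with more Tyro3 in the resistant background, the control resistant cells, therefore lay below the group with less Tyro3 in the parental background. Tyro3 was higher by 2.07 on the log2 scale in overexpressing over parental cells and by 2.43 in resistant over knockout cells, so that both contrasts spanned a similar fold but different ranges of level. The difference between backgrounds was -0.36 (SE 0.14, adjusted p = 0.0346), and it missed the threshold under 8 of 17 other settings, among them DESeq2 (adjusted p = 0.105) and the fit without knockout replicate 1 (adjusted p = 0.182).

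Of the related receptors, Axl stood at 1509 and 1549 CPM in parental, 1297 and 1290 CPM in overexpressing, 759 and 719.9 CPM in resistant and 1436 and 1433 CPM in knockout libraries. It fell with more Tyro3 in both backgrounds, with effects of -0.24 (SE 0.04) and -0.96 (SE 0.04) and a difference of 0.71 (SE 0.06, adjusted p = 2.91e-14). Pros1, a ligand, was measured at 30.6 and 31.9 CPM in parental, 27.5 and 29.8 CPM in overexpressing, 17.1 and 15 CPM in resistant and 58.2 and 53.5 CPM in knockout libraries. The overexpressing and parental libraries lay close to each other, while every knockout library lay above every resistant library. Its effect was -0.13 in the parental background (adjusted p = 0.175) and -1.80 in the resistant background, and the difference was 1.68 (SE 0.12, adjusted p = 2.23e-16). Mertk was scarce, at most 0.772 CPM in all libraries but the resistant ones, at 2.34 and 2.52 CPM, and its difference was -2.74 (SE 0.69, adjusted p = 0.000909). Gas6 is not analysed here.

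The difference was called for 46.7% of the genes tested, with 3588 positive (24.7%) and 3188 negative (22.0%), and 7568 had an unadjusted p under 0.05. It reached 1 on the log2 scale in 1655 genes (11.4%). The effects themselves were called for 66.2% of genes in the parental background and for 72.7% in the resistant background. Both were called for 7975 genes, and in 7025 of these (88.09%) they had the same sign. The median size of the effect was 0.49 in the parental and 0.60 in the resistant background, and the median difference over all genes was -0.0032. Across the 14513 genes the effects correlated at r = 0.576, as a description over genes that share their libraries.

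Among genes with both effects called and a called difference, the most common pattern was the same direction with unequal size. There were 3322 of these, 2306 with the larger effect in the resistant background and 1016 with the larger effect in the parental background. A smaller set, 950 genes or 6.55% of those tested, had effects called in opposite directions. Of these, 533 were higher with more Tyro3 in the parental background and lower with more Tyro3 in the resistant background, and 417 showed the reverse. DESeq2 called 617 in opposite directions and 667 with the same direction and the larger effect in the parental background. In a further 948 genes the effect was called only in the parental background, in 1487 only in the resistant background, and in 69 in neither. The same difference can also be written as overexpressing over resistant plus knockout over parental. The first of these was the larger term in 4628 of the 6776 genes (68.3%), and the terms were called by themselves for 55.3% and 36.3% of all genes.

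**Figure D1:**
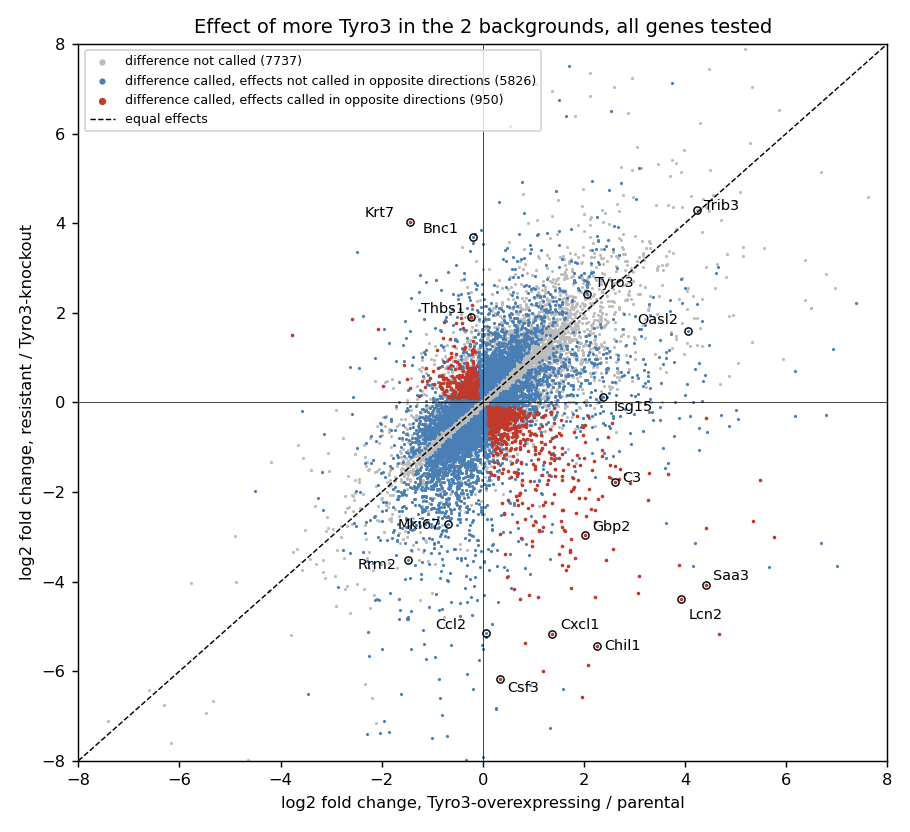
Each point is a gene, placed by its log2 fold change in overexpressing over parental cells (x axis) and in resistant over knockout cells (y axis), for 14513 genes with 16 outside the range plotted. Genes on the dashed line have equal effects, and the 950 red genes, with Lcn2, Saa3, Chil1 and Csf3 far below the line and Krt7 above it, have effects called in opposite directions.

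In the lists of genes related to interferon, most tested members had a positive difference called. Genes for interferon receptors and JAK-STAT signalling had 10 of 14 tested members called positive, against 24.7% of all genes, and 1 called negative, with a median difference of 0.72. The nucleic acid sensors and adaptors had 11 of 15 called positive and 1 negative, with a median of 0.85. Interferon-stimulated effectors had 30 of 37 called positive and 1 negative, with a median of 1.63. The interferon-inducible GTPases had 11 of 12 called positive and none negative, with a median of 3.20. MHC class I and peptide loading genes had 19 of 23 called positive and 1 negative, with a median of 0.63.

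Among the signalling genes, Stat3, a transcription factor of cytokine receptors, stood at 86.3 and 89.8 CPM in parental, 161 and 159 CPM in overexpressing, 142 and 140.4 CPM in resistant and 199 and 198 CPM in knockout libraries. The overexpressing group was above the parental group and the resistant group below the knockout group, with no overlap in either pair. Its effects were 0.86 (SE 0.05) and -0.49 (SE 0.04), and its difference was 1.35 (SE 0.06, adjusted p = 1.56e-22). Socs3, a feedback inhibitor of JAK-STAT signalling, stood at 22.3 and 20.8 CPM in parental, 33.1 and 35.4 CPM in overexpressing, 32.4 and 34 CPM in resistant and 105 and 96.8 CPM in knockout libraries. The knockout libraries stood far above the other groups, and the difference was 2.28 (SE 0.10, adjusted p = 8.31e-23). Jak2, a kinase of cytokine receptors, rose in both backgrounds, by 1.08 and 0.23, with a difference of 0.85 (SE 0.07, adjusted p = 5.15e-14).

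Of the sensors, Ddx58, the RNA sensor RIG-I, was measured at 48.2 and 53.1 CPM in parental, 91.6 and 91 CPM in overexpressing, 34.1 and 32.2 CPM in resistant and 41.9 and 42.7 CPM in knockout libraries. It was highest in the overexpressing and lowest in the resistant group, and the difference was 1.20 (SE 0.09, adjusted p = 5.26e-15). Tlr3, an endosomal receptor of double-stranded RNA, had effects of 1.03 and -1.48 and a difference of 2.51 (SE 0.25, adjusted p = 1.63e-11). Ifi204, of the DNA-sensing family, had effects of 0.42 and -0.68 and a difference of 1.10 (SE 0.09, adjusted p = 1.11e-13).

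The effectors rose with more Tyro3 mainly in the parental background. Their median effect was 2.53 there, with 35 of 37 called higher (32.5% of all genes), and 0.59 in the resistant background, with 21 called higher (35.6% of all genes) and 7 lower. Oasl2, of the oligoadenylate synthetase-like family, stood at 3.33 and 3.18 CPM in parental, 54.8 and 53.5 CPM in overexpressing, 13.7 and 15.1 CPM in resistant and 4.93 and 4.49 CPM in knockout libraries. In both backgrounds the group with more Tyro3 was higher, by 4.06 (SE 0.12) and 1.60 (SE 0.12), and the difference was 2.45 (SE 0.19, adjusted p = 6.34e-15). Isg15, a ubiquitin-like modifier, was measured at 5.23 and 5.54 CPM in parental, 29.4 and 26.8 CPM in overexpressing, 7.3 and 8.48 CPM in resistant and 6.92 and 7.72 CPM in knockout libraries. The overexpressing libraries stood apart, while resistant and knockout libraries overlapped (effect 0.11, adjusted p = 0.449), and the difference was 2.27 (SE 0.19, adjusted p = 4.29e-14). Parp14, an ADP-ribosyltransferase induced by interferon, showed the same order, with effects of 3.26 and 0.68 and a difference of 2.58 (SE 0.15, adjusted p = 1.14e-18).

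The GTPases, which act against intracellular microbes, held some of the largest differences of the pathway. Their median effect was 3.05 in the parental and 0.03 in the resistant background. Gbp2 (ENSMUSG00000028270, chromosome 3, 142620602 to 142638008, plus strand) stood at 6.18 and 6.21 CPM in parental, 26.9 and 23.6 CPM in overexpressing, 1.64 and 1.17 CPM in resistant and 11.2 and 10.8 CPM in knockout libraries. It was highest in the overexpressing and lowest in the resistant libraries, with no overlap between any of the groups. The effects were 2.02 (SE 0.12) and -2.96 (SE 0.18), and the difference was 4.99 (SE 0.22, adjusted p = 1.79e-23). Gbp2b behaved alike, with effects of 2.21 and -2.41 and a difference of 4.62 (SE 0.27, adjusted p = 6.26e-19). Gbp3 had a difference of 4.19 (SE 0.35, adjusted p = 5.45e-14) and Gbp9 of 2.19 (SE 0.19, adjusted p = 1.37e-13). Gbp2 and Gbp2b are close paralogues, and the sources used here do not state how reads that match both were counted.

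The response element was looked for in the promoters of these genes, as the 250 bases before the start of each gene in RefSeq (GRCm38.p6). The letters searched were GAAA, any pair of bases and GAAA again, on both strands, with overlapping matches allowed. They occurred in 3.46% of 27025 genes, in 8 of the 8 GTPase genes with a promoter in the table, in 10 of 29 effectors, in 3 of 20 MHC class I and peptide loading genes and in none of 14 NF-kB targets. The stretches of 110 bases before the start of an effector and a pair of GTPases are shown here with the matches in capitals, as examples of the genes named above that hold a match. A match in capitals is a description of the letters and not evidence of binding.
Isg15, chr4:156200819-156200928, minus strand: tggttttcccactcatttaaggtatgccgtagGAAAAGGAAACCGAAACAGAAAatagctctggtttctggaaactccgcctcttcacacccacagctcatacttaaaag
Gbp2, chr3:142620553-142620662, plus strand: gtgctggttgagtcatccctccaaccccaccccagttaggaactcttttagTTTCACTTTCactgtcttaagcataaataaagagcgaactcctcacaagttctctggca
Gbp3, chr3:142559934-142560043, plus strand: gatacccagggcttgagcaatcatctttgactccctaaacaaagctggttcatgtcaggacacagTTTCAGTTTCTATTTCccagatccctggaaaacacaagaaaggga

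Isg15 holds 3 overlapping matches, Gbp3 holds 2 and Gbp2 holds 1, and those of the GTPases read on the opposite strand.

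In antigen presentation the difference was uneven. The transporter subunit Tap1 stood at 4.93 and 4.52 CPM in parental, 32.1 and 32 CPM in overexpressing, 20.6 and 18.9 CPM in resistant and 5.71 and 7.22 CPM in knockout libraries. It rose in both backgrounds, by 2.76 and 1.63, with a difference of 1.13 (SE 0.18, adjusted p = 9.32e-07). The non-classical heavy chain H2-Q4 had effects of 1.84 and 0.63 and a difference of 1.21 (SE 0.11, adjusted p = 3.78e-13), and the tapasin-like Tapbpl had effects of 1.15 and -0.72 and a difference of 1.87 (SE 0.17, adjusted p = 1.84e-12). The main components of surface MHC class I were different. H2-D1, a classical heavy chain, stood at 224 and 214 CPM in parental, 500.1 and 492 CPM in overexpressing, 564 and 517 CPM in resistant and 227 and 233 CPM in knockout libraries. It rose with more Tyro3 within each background, by 1.18 (SE 0.04) and 1.24 (SE 0.04), to similar levels in overexpressing and resistant libraries. Its difference was -0.06 (95% interval -0.18 to 0.06, adjusted p = 0.472). B2m, the light chain, rose by 0.73 and 1.04, with a negative difference of -0.31 (SE 0.06, adjusted p = 2.73e-05) that changed sign when the trend with gene length was removed (0.07). Reads of H2 genes are shared by near-identical copies, so these values are uncertain. Cd274, which encodes the PD1 ligand PD-L1, was low, at 1.96 and 1.85 CPM in parental, 10.8 and 9.1 CPM in overexpressing, 3.05 and 2.21 CPM in resistant and 1.28 and 1.21 CPM in knockout libraries. It rose in both backgrounds, by 2.38 and 1.07, with a difference of 1.31 (SE 0.36, adjusted p = 0.00233). Another checkpoint ligand, Lgals9, had a difference of 1.31 (SE 0.11, adjusted p = 3.52e-14), and Pvr, a ligand of TIGIT and CD96, had one of -0.83 (SE 0.07, adjusted p = 1.88e-13). Over the 9 checkpoint ligands tested, 3 were called positive and 1 negative, against 24.7% and 22.0% of all genes. The share called in either direction, 44.4%, was near that of all genes, 46.7%.

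**Figure D2:**
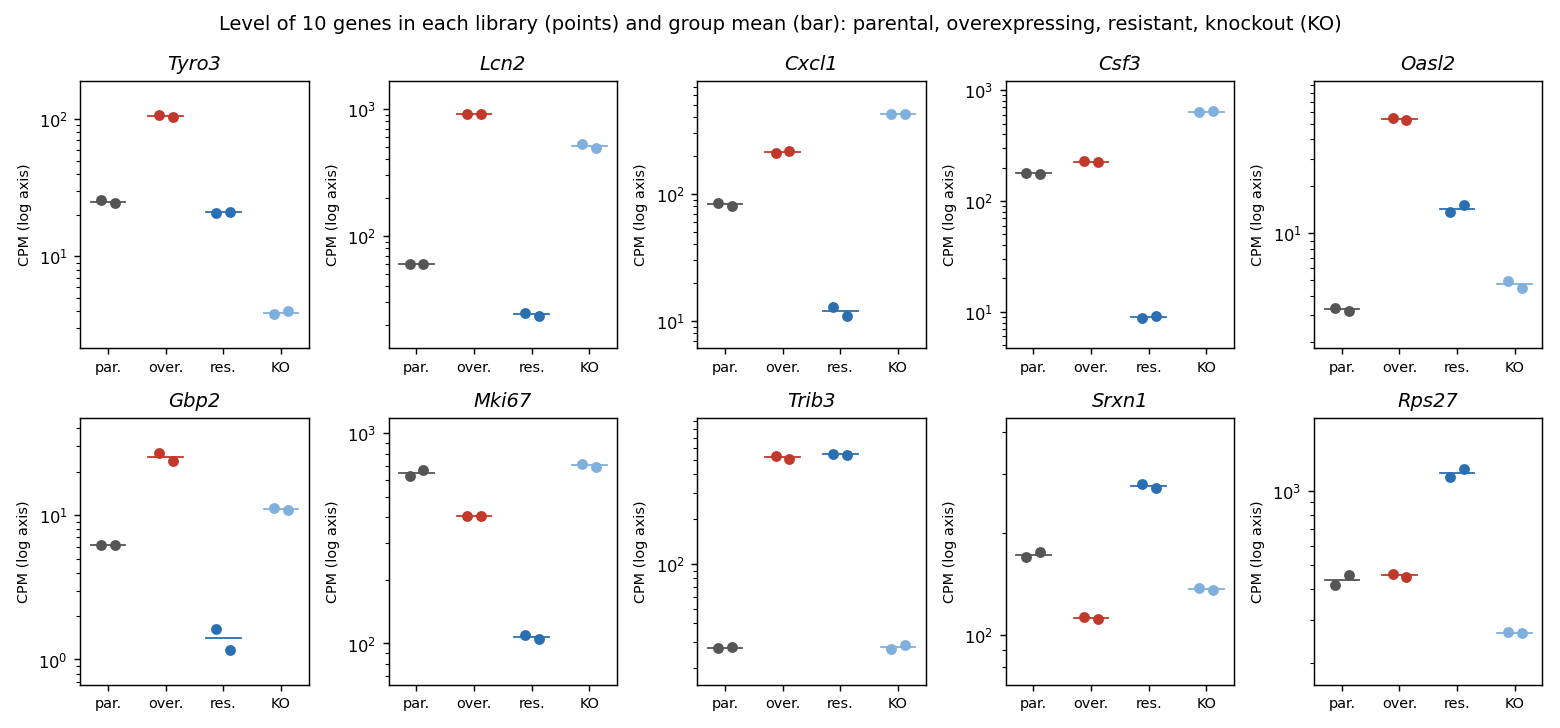
Levels in CPM on a log axis of 10 genes in each of the 8 libraries, with a bar at the group mean. Lcn2, Cxcl1, Csf3, Gbp2 and Mki67 are lowest in the resistant libraries, and Oasl2 is highest in the overexpressing libraries. Trib3 is close in overexpressing and resistant libraries, and Rps27 is highest in the resistant libraries.

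Acute phase and complement genes had 14 of 19 tested members called positive and none negative, against 24.7% and 22.0% of all genes. Their median difference was 2.53, with median effects of 3.07 in the parental and 0.16 in the resistant background. In 7 of the 19 the effects were called in opposite directions, against 6.55% of all genes. NF-kB targets and feedback genes had 13 of 19 called positive and 1 negative, a median difference of 0.82 and 9 members in opposite directions. Chemokines, cytokines and colony-stimulating factors had 14 of 23 called positive and 2 negative, a median difference of 1.07 and 8 members in opposite directions.

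Lcn2 (ENSMUSG00000026822, chromosome 2, 32384633 to 32388252, minus strand), the siderophore-binding lipocalin-2, stood at 60 and 60.4 CPM in parental, 908 and 919 CPM in overexpressing, 24.9 and 23.5 CPM in resistant and 524 and 494 CPM in knockout libraries. Overexpressing cells were far above parental cells, and resistant cells far below knockout cells. Its effects were 3.92 (SE 0.05) and -4.40 (SE 0.05), and the difference was 8.32 (SE 0.07, adjusted p = 1.36e-51). Saa3, a serum amyloid protein, was lower in abundance, at 2.08 and 1.8 CPM in parental, 43.4 and 38.9 CPM in overexpressing, 0.973 and 1.76 CPM in resistant and 20.9 and 25.4 CPM in knockout libraries, with the same pattern and a difference of 8.48 (SE 0.23, adjusted p = 2.05e-31). Hp, haptoglobin, had a difference of 7.23 (SE 0.37, adjusted p = 1.00e-20). C3, the central complement component, stood at 82.9 and 84.3 CPM in parental, 510.5 and 508 CPM in overexpressing, 47.5 and 44.5 CPM in resistant and 158 and 158 CPM in knockout libraries. The effects of C3 were 2.61 (SE 0.04) and -1.78 (SE 0.05), and the difference was 4.39 (SE 0.06, adjusted p = 8.52e-42). C1s1, a protease of the classical pathway, rose by 4.00 in the parental background (0.16 in the resistant background, adjusted p = 0.193), and the difference was 3.84 (SE 0.16, adjusted p = 6.24e-24). Lbp, the lipopolysaccharide-binding protein, differed from these, at 1.25 and 0.719 CPM in parental, 32.7 and 32.9 CPM in overexpressing, 35.7 and 33.3 CPM in resistant and 1.28 and 1.36 CPM in knockout libraries. It rose with more Tyro3 in both backgrounds, by 5.08 and 4.71, with a difference of 0.37 (adjusted p = 0.358).

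Opposite effects were called for the following named regulators and targets of NF-kB. Nfkbiz, an inducible cofactor needed for a subset of its targets, stood at 15.7 and 16.2 CPM in parental, 56.6 and 55.8 CPM in overexpressing, 26.7 and 27.8 CPM in resistant and 108 and 94 CPM in knockout libraries. Its effects were 1.81 (SE 0.08) and -1.90 (SE 0.07), and the difference was 3.71 (SE 0.11, adjusted p = 3.61e-30). Zc3h12a, the ribonuclease Regnase-1 that degrades cytokine mRNA, had effects of 1.62 and -2.87 and a difference of 4.49 (SE 0.13, adjusted p = 3.86e-30). Bcl3, an atypical IkB protein, had effects of 1.27 and -1.82 and a difference of 3.09 (SE 0.12, adjusted p = 1.50e-24). Sod2, the mitochondrial superoxide dismutase, had effects of 0.40 and -1.49 and a difference of 1.90 (SE 0.06, adjusted p = 1.35e-27).

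Among the chemokines, cytokines and colony-stimulating factors, 18 of 23 were called lower and 3 higher in resistant than in knockout cells, against 37.1% and 35.6% of all genes. Cxcl1, a ligand of the neutrophil receptor CXCR2, stood at 84.3 and 80.8 CPM in parental, 211 and 218 CPM in overexpressing, 12.9 and 11 CPM in resistant and 429 and 428 CPM in knockout libraries. Resistant libraries were the lowest and knockout libraries the highest, with no overlap between groups. The effects were 1.38 (SE 0.05) and -5.16 (SE 0.06), and the difference was 6.54 (SE 0.08, adjusted p = 4.85e-46). Csf3, the granulocyte colony-stimulating factor, stood at 181 and 175 CPM in parental, 228 and 223 CPM in overexpressing, 8.76 and 9.15 CPM in resistant and 634 and 651 CPM in knockout libraries. Here the parental and overexpressing groups were close, with an effect of 0.34 (SE 0.04), the effect in the resistant background was -6.16 (SE 0.06), and the difference was 6.51 (SE 0.07, adjusted p = 2.27e-46). Ccl2, a monocyte chemoattractant, stood between 58.4 and 68.6 CPM in every library except the resistant ones, at 1.5 and 1.89 CPM, and its difference was 5.21 (SE 0.14, adjusted p = 8.04e-31). Mmp9, a gelatinase, stood at 98.7 and 94.3 CPM in parental, 362 and 363 CPM in overexpressing, 23.4 and 22.7 CPM in resistant and 102 and 100.3 CPM in knockout libraries, with effects of 1.91 (SE 0.04) and -2.13 (SE 0.06) and a difference of 4.04 (SE 0.07, adjusted p = 1.11e-38). Among other genes with large opposite effects, Chil1, a chitinase-like protein, had a difference of 7.69 (SE 0.17, adjusted p = 2.81e-34) and Acod1, the enzyme that makes itaconate, one of 7.33 (SE 0.34, adjusted p = 1.21e-22). Fas, the death receptor, had effects of 1.57 and -3.20 and a difference of 4.77 (SE 0.21, adjusted p = 1.49e-23). The neutrophil marker S100a8, at 3.18 and 4.19 CPM in resistant and 33 and 26.9 CPM in parental libraries, was itself among the genes with a positive difference (1.57 (SE 0.18, adjusted p = 4.00e-10)), and the part of other cells in these results was not tested.

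The letters of an NF-kB site, GGGA and CC with 4 bases of any kind between them, searched likewise on both strands, were far more common than the interferon element, in 19.67% of all genes. They stood in 8 of 13 chemokine and cytokine genes, 6 of 14 NF-kB targets and, for comparison, 11 of 28 genes of G2 and mitosis. The promoter of Cxcl1 is shown because that gene had the lowest adjusted p of the chemokines after Csf3. It holds 3 matches, a pair of which overlap.
Cxcl1, chr5:90891135-90891244, plus strand: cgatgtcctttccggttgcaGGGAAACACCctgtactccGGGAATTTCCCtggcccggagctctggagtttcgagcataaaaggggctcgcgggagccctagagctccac

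**Figure D3:**
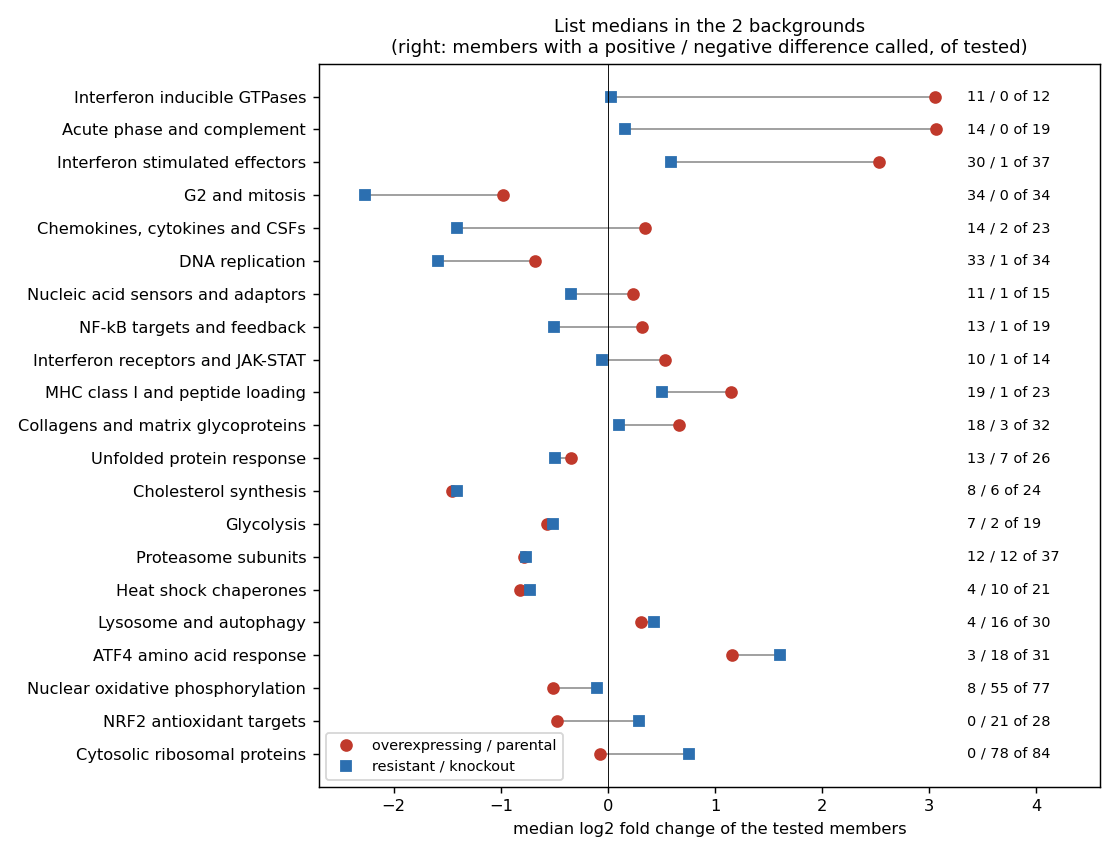
Median log2 fold change of the tested members of 21 gene lists in overexpressing over parental cells (red circles) and in resistant over knockout cells (blue squares), with the count of members whose difference was called positive and negative. Interferon, acute phase and cytokine lists have the red circle to the right of the blue square, cholesterol synthesis has both close together, and ribosomal proteins have the blue square to the right.

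Most genes of G2 and mitosis and of DNA replication fell with more Tyro3 in both backgrounds, and their median fall was larger in the resistant one. All 34 tested genes of G2 and mitosis were called lower in both, against 33.7% of all genes in the parental and 37.1% in the resistant background, with a median of -0.98 in the parental and -2.26 in the resistant background. All 34 had a positive difference called, with a median of 1.43. For DNA replication, 33 of 34 were called positive and 1 negative, with a median difference of 0.98. Of these, 28 were called lower and 1 higher in the parental background (median effect -0.68), and 33 lower in the resistant background (median effect -1.59). Mki67, the proliferation antigen, stood at 625 and 668 CPM in parental, 403 and 403 CPM in overexpressing, 109 and 105 CPM in resistant and 719 and 688 CPM in knockout libraries. Parental and knockout libraries were close, overexpressing libraries were lower and resistant libraries much lower. The effects were -0.68 (SE 0.04) and -2.72 (SE 0.04), and the difference was 2.03 (SE 0.06, adjusted p = 8.79e-30). Cenpf, a kinetochore protein, had effects of -0.98 and -3.17 and a difference of 2.19 (SE 0.07, adjusted p = 1.54e-29). Top2a, the topoisomerase of mitotic chromosomes, had a difference of 1.75 (SE 0.06, adjusted p = 9.80e-28). Rrm2, a subunit of ribonucleotide reductase, stood at 470.3 and 465 CPM in parental, 170.5 and 167 CPM in overexpressing, 43.4 and 45.7 CPM in resistant and 509 and 513 CPM in knockout libraries, with effects of -1.47 (SE 0.04) and -3.52 (SE 0.05) and a difference of 2.05 (SE 0.06, adjusted p = 1.54e-29). Mcm6, of the replicative helicase, had effects of -0.17 and -1.90 and a difference of 1.73 (SE 0.06, adjusted p = 1.95e-27). Written in the other form, the difference of the G2 and mitosis genes lay between overexpressing and resistant cells (median 1.48), while knockout and parental cells were close (median -0.03).

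**Figure D4:**
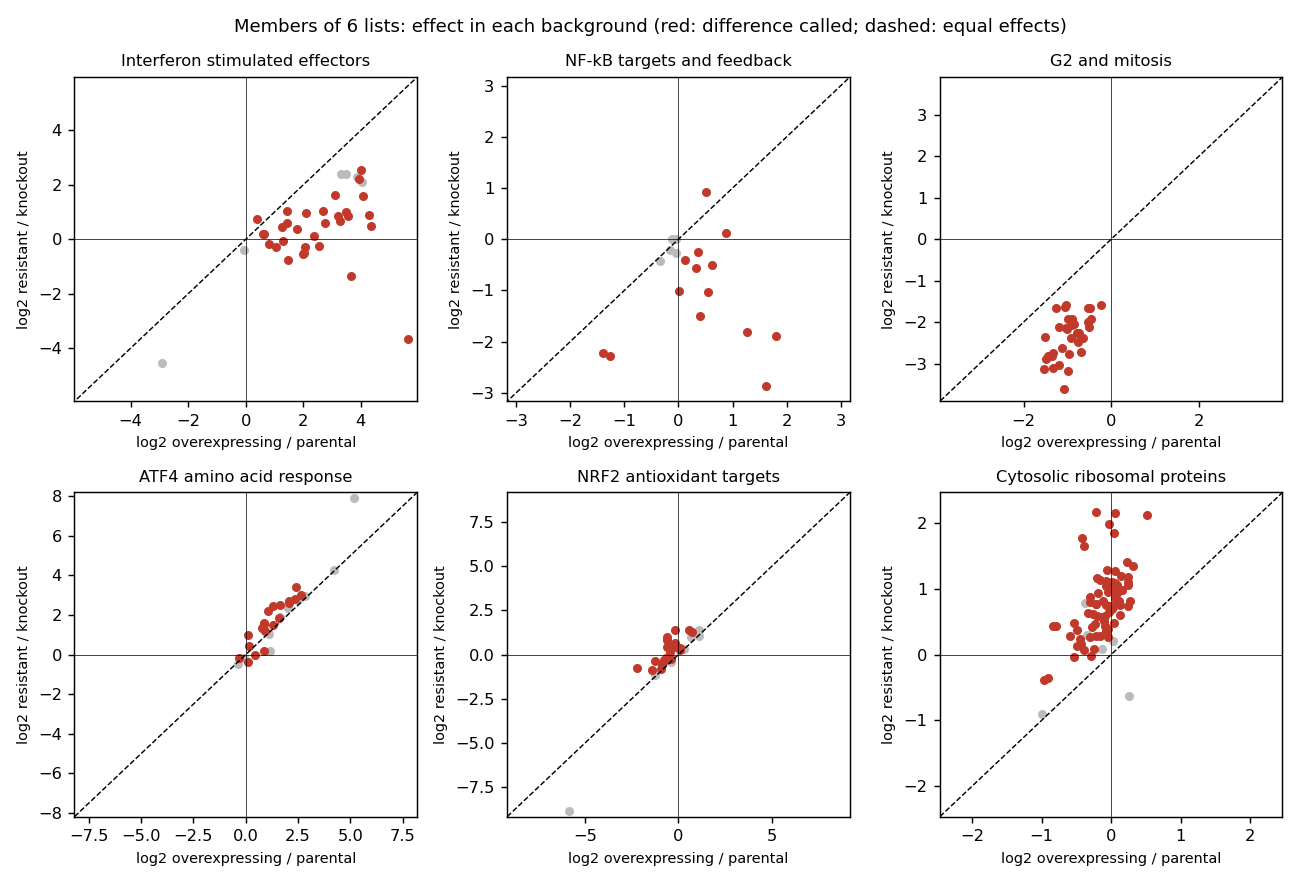
Each panel plots the tested members of a list by their log2 fold change in overexpressing over parental cells (x axis) and in resistant over knockout cells (y axis), red where the difference was called and grey where not. The 34 genes of G2 and mitosis lie below the dashed line of equal effects, and cytosolic ribosomal proteins lie mostly above it, whereas genes of the amino acid response lie near it.

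Most genes of the amino acid response rose with more Tyro3 in both backgrounds. ATF4 is the transcription factor of the integrated stress response, and its targets supply amino acids and transport. Of 31 tested genes, 27 were called higher with more Tyro3 in the parental background and 25 in the resistant background. The shares of all genes were 32.5% and 35.6%, and the medians of the list were 1.16 and 1.61. The difference was negative in 18 and positive in 3, against 22.0% and 24.7% of all genes, with a median of -0.29. Trib3, a pseudokinase that feeds back on ATF4, stood at 27.3 and 27.8 CPM in parental, 533 and 503 CPM in overexpressing, 547 and 540.5 CPM in resistant and 27.1 and 28.9 CPM in knockout libraries. Parental and knockout libraries overlapped, and the overexpressing and resistant libraries stood far above them. The effects were 4.23 (SE 0.05) and 4.29 (SE 0.05), and the difference was -0.05 (SE 0.08, adjusted p = 0.609). Atf5 had effects of 2.82 and 2.95 and a difference of -0.13 (adjusted p = 0.127). Slc7a11, the cystine transporter, stood at 81.1 and 88.6 CPM in parental, 182 and 185 CPM in overexpressing, 316 and 289 CPM in resistant and 144 and 146 CPM in knockout libraries, with effects of 1.11 and 1.06 and a difference of 0.05 (adjusted p = 0.611). Its partner chain Slc3a2 rose more in the resistant background, with a difference of -0.55 (SE 0.06, adjusted p = 9.94e-11). Atf4 itself had a difference of -0.69 (SE 0.06, adjusted p = 3.06e-14). Chac1, which degrades glutathione, had the most negative called difference of the list (-1.18 (SE 0.08, adjusted p = 2.06e-17)).

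Across all genes, 1577 had both effects called in the same direction with at least 1 on the log2 scale. In 305 of these the 95% interval of the difference lay within 0.5 either way, 124 of them higher and 181 lower with more Tyro3. Gadd45a, a stress and growth arrest gene, and Trp53inp1, a p53-inducible autophagy gene, were among those higher, with differences of 0.04 and -0.01 on effects of 2.88 and 3.06 in the parental background. Sned1 and Cacng7 were also among them, with differences of 0.14 and -0.10.

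Cholesterol synthesis genes fell with more Tyro3 in both backgrounds. All 24 tested genes were called lower in both backgrounds, against 33.7% and 37.1% of all genes, with medians of -1.46 and -1.41. The difference was called positive in 8 and negative in 6, against 24.7% and 22.0% of all genes, with a median of 0.07. Hsd17b7, an enzyme of the late pathway, stood at 29.9 and 28.1 CPM in parental, 4.87 and 4.13 CPM in overexpressing, 5.09 and 4.64 CPM in resistant and 31.4 and 34.3 CPM in knockout libraries. The overexpressing and resistant libraries overlapped and lay far below the others, and its difference was 0.07 (adjusted p = 0.798). Cyp51, lanosterol demethylase, had a difference of 0.25 (SE 0.10, adjusted p = 0.0455) that missed the threshold under 11 of 17 other settings. Odc1, ornithine decarboxylase, fell from 3719 and 3617 to 637 and 645 CPM and, with more Tyro3 in the resistant background, from 2271 and 2348 to 348 and 334 CPM, with a difference of 0.24 (SE 0.06, adjusted p = 0.000644). Slco4a1 and Tpgs2 also fell in both backgrounds, with differences of -0.24 and 0.01. Odc1, Slco4a1 and Tpgs2 were named for near equal effects and not as cholesterol synthesis genes.

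Most heat shock chaperones fell in both backgrounds, with 20 and 18 of 21 called lower, against 33.7% and 37.1% of all genes. Their medians were -0.82 and -0.73. The difference was negative in 10 and positive in 4, against 22.0% and 24.7% of all genes. Hsph1 had a difference of -0.89 (SE 0.06, adjusted p = 1.78e-17) and Hspa8, the constitutive Hsc70, one of 0.45 (SE 0.06, adjusted p = 5.83e-08). Of the 37 proteasome subunits tested, 35 and 33 were called lower, against 33.7% and 37.1% of all genes, with medians of -0.79 and -0.76. The difference was positive in 12 and negative in 12 of 37, against 24.7% and 22.0% of all genes. The inducible subunit Psmb8, which belongs to the immunoproteasome, rose instead, by 2.02 and 0.51, with a difference of 1.52 (SE 0.16, adjusted p = 4.54e-11).

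Most antioxidant genes had a negative difference called. NRF2 is the regulator of glutathione, thioredoxin and iron storage genes. Of its 28 tested targets, 21 had a negative difference called, against 22.0% of all genes, and none a positive one, with a median of -0.47. In the parental background 20 were called lower and 6 higher with more Tyro3, against 33.7% and 32.5% of all genes. In the resistant background 12 were called lower and 16 higher, against 37.1% and 35.6% of all genes. Srxn1, sulfiredoxin, stood at 170.3 and 176 CPM in parental, 113 and 112 CPM in overexpressing, 281 and 273 CPM in resistant and 138 and 136 CPM in knockout libraries. It was lowest in overexpressing and highest in resistant libraries, with effects of -0.63 (SE 0.04) and 1.01 (SE 0.04) and a difference of -1.64 (SE 0.06, adjusted p = 3.24e-26). Hmox1, heme oxygenase 1, stood at 93.7 and 94.6 CPM in parental, 59.5 and 61.9 CPM in overexpressing, 170 and 165 CPM in resistant and 91.6 and 95.2 CPM in knockout libraries. Its effects were -0.63 (SE 0.05) and 0.84 (SE 0.05), and the difference was -1.48 (SE 0.07, adjusted p = 2.32e-22). Ftl1, the ferritin light chain, stood between 1473 and 2075 CPM in all libraries except the resistant ones, at 5259 and 5129 CPM, with a difference of -1.56 (SE 0.07, adjusted p = 1.04e-22). Nqo1, a quinone reductase, fell in both backgrounds, with effects of -2.22 and -0.74, and its difference was -1.48 (SE 0.08, adjusted p = 6.42e-20). Txnrd1, thioredoxin reductase, had effects of -0.62 and 0.45.

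Cytosolic ribosomal protein genes mostly had a negative difference called, in 78 of 84 tested and none positive, against 22.0% and 24.7% of all genes. Their median difference was -0.84. In the resistant background 72 were called higher with more Tyro3, against 35.6% of all genes, with a median of 0.75. In the parental background 14 were higher and 35 lower, against 32.5% and 33.7% of all genes, with a median of -0.07. Rps27 stood at 414 and 458 CPM in parental, 462 and 447 CPM in overexpressing, 1141 and 1225 CPM in resistant and 268 and 264 CPM in knockout libraries. Resistant libraries were the highest and knockout libraries the lowest, and the difference was -2.09 (SE 0.06, adjusted p = 1.99e-29). Rpl39 had a difference of -1.81 (SE 0.07, adjusted p = 3.24e-26) and Rps21 of -2.05 (SE 0.08, adjusted p = 2.65e-25). Nuclear genes of oxidative phosphorylation had 55 of 77 called negative and 8 positive, with a median of -0.44, among them Cox8a at -1.08 (SE 0.06, adjusted p = 5.81e-19) and Atp5mpl at -1.47 (SE 0.09, adjusted p = 1.28e-17). Mitochondrially encoded genes had 10 of 13 called negative, with a median of -0.39, which became 2 once the trend with gene length was removed and 4 once those with GC content and gene length were removed.

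The difference ran with gene length over all protein-coding genes, and these lists hold short genes. Its median was -0.78 over 33 genes shorter than 500 bases, -0.51 over 82 genes from 500 to under 750 bases, -0.14 over 550 genes from 1000 to under 1500 bases and 0.07 over 2974 genes from 4000 to under 6000 bases. With the length trend of each library removed, 76 of the 84 ribosomal protein genes and 43 of the 77 genes of oxidative phosphorylation were called negative, and with GC content added 78 and 44. The difference of Cox8a was -0.55 with the length trend removed. The share of length in these differences beyond this was not tested.

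**Figure D5:**
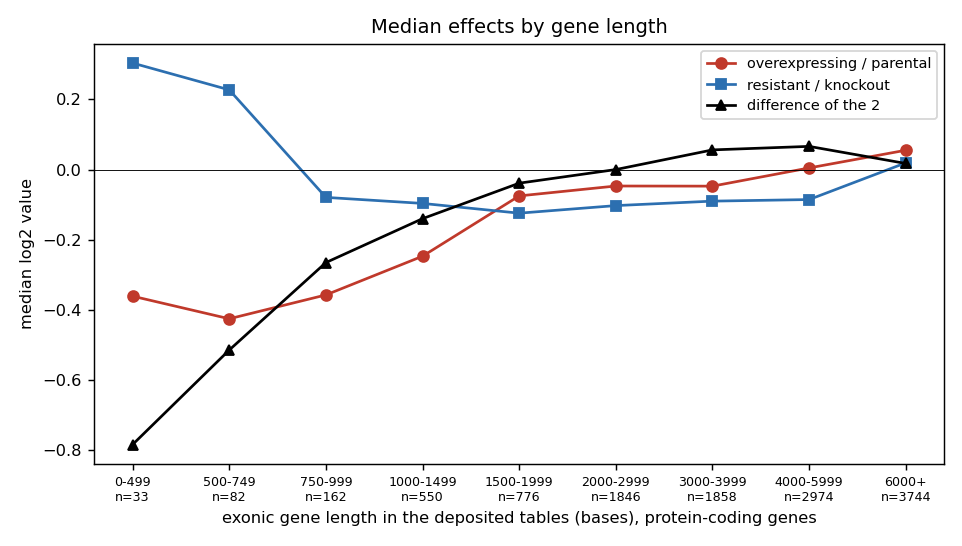
Median log2 effect in each background and median difference between them, for protein-coding genes in 9 classes of exonic length in the deposited tables (x axis, bases, with the number of genes). The difference is -0.78 in the shortest class and between -0.04 and 0.07 in the classes from 1500 bases on.

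Single genes with large negative differences were mostly higher in resistant than in knockout cells. Krt7, a simple epithelial keratin, stood at 25 and 24.6 CPM in parental, 9.66 and 8.66 CPM in overexpressing, 9.29 and 8.79 CPM in resistant and 0.544 and 0.555 CPM in knockout libraries. Knockout libraries were the lowest, the parental libraries were the highest, and the effects had opposite signs, -1.44 (SE 0.11) and 4.03 (SE 0.22), with a difference of -5.47 (adjusted p = 5.81e-23). Bnc1, a zinc finger protein of keratinocytes and germ cells, stood between 4.95 and 5.90 CPM in parental and overexpressing libraries and at 142 and 136 CPM in resistant libraries against 11.7 and 9.74 CPM in knockout libraries, with a difference of -3.88 (SE 0.18, adjusted p = 7.79e-23). Epha1, an ephrin receptor, stood at 19.7 and 17.4 CPM in parental, 16.1 and 17.7 CPM in overexpressing, 87.8 and 80.5 CPM in resistant and 15 and 13.8 CPM in knockout libraries, with a difference of -2.67 (SE 0.13, adjusted p = 4.70e-22). Tmem151a, Tenm4, Cyp27b1 and Wnt9a were less abundant, at most 18.7 CPM, and had differences of -2.95, -2.68, -2.66 and -2.58. Olfml2b, a matrix protein, had effects of -0.77 and 1.80 and a difference of -2.57 (SE 0.17, adjusted p = 6.05e-17). Adm, the vasodilator peptide adrenomedullin, had effects of -1.55 and 0.83 and a difference of -2.38 (SE 0.27, adjusted p = 3.63e-10).

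Epithelial junctions and keratins had 13 of 21 tested members called positive and 3 negative, against 24.7% and 22.0% of all genes. Dsp, desmoplakin of the desmosome, stood at 38.5 and 41.9 CPM in parental, 42.2 and 39.6 CPM in overexpressing, 2.48 and 3.07 CPM in resistant and 52.7 and 57.4 CPM in knockout libraries. The resistant libraries were far below all others, and the difference was 4.33 (SE 0.14, adjusted p = 4.16e-28). Cdh17 was at 0.177 and 0.18 CPM in resistant libraries, with 4 reads in each, and at 28.7 and 34.3 CPM in knockout libraries, with a difference of 5.12. Anxa8, an annexin, was at most 1.29 CPM except in knockout libraries, at 26.2 and 25.6 CPM, with a difference of 7.10 (SE 0.58). The resistant libraries had 10 and 0 reads of it, and without resistant replicate 1 the fitted difference was 12.4. Collagens and matrix glycoproteins had 18 of 32 called positive and 3 negative, against the same shares. Spp1, osteopontin, stood at 1003 and 964 CPM in parental, 1376 and 1397 CPM in overexpressing, 895 and 863 CPM in resistant and 1564 and 1540 CPM in knockout libraries, with a difference of 1.32 (SE 0.06, adjusted p = 3.21e-23), while Thbs1, thrombospondin 1, had effects of -0.23 and 1.90 and a difference of -2.13 (SE 0.06, adjusted p = 4.79e-30). Targets of YAP and TEAD had 8 of 18 called negative and 6 positive, against 22.0% and 24.7% of all genes. The canonical target Ctgf stood at 54.8 and 58.4 CPM in parental, 14.6 and 14.1 CPM in overexpressing, 24.9 and 23.4 CPM in resistant and 20.7 and 16.6 CPM in knockout libraries. Its effects were -1.98 in the parental and 0.36 in the resistant background, with a difference of -2.34 (SE 0.13, adjusted p = 8.55e-20). F3, tissue factor, had a difference of -1.67 (SE 0.16, adjusted p = 6.54e-12). Plau, urokinase, fell in both backgrounds, with a difference of -1.40 (SE 0.07, adjusted p = 4.37e-21), and Serpine2, a serpin that inhibits it, had effects of 0.99 and -1.38. Jund, a subunit of AP-1, was at 156 and 167 CPM in resistant libraries and between 49.0 and 53.0 CPM elsewhere, with a difference of -1.66 (SE 0.08, adjusted p = 1.87e-21). Vegfa, the angiogenic factor, rose in both backgrounds, with a difference of -0.76 (SE 0.06, adjusted p = 4.14e-14).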

How the data were processed

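Total RNA of 8 cell line samples was sequenced after Trizol extraction and a standard Illumina library protocol, per the labels. The authors deposited 3 tables of 4 libraries each with raw read counts per gene, per the file headers. CASAVA, STAR and DESeq2 and the builds GRCm38 and mm10 are named in the submitters' processing notes, with no version or role. Which program counted the reads, and whether by strand, is not given in the sources used here.

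Joining the tables on the gene identifier gave 24677 genes, and 20265 were listed in all of them. A gene unlisted for a library was set to 0 there. Parental and resistant libraries were each in more than 1 table, and genes listed in only 1 of these had at most 1 read. Overexpressing and knockout libraries were each in 1 table, so this could not be checked for them. In each of these libraries 2007 (overexpressing) or 2056 (knockout) genes were set to 0. Of the symbols, 24 had been stored as dates and were restored by identifier. edgeR 4.0.16 in R 4.3.3 (TMM, filterByExpr, glmQLFit, glmQLFTest) was fitted on all 8 libraries with 1 mean per group, with Benjamini-Hochberg adjustment over 14513 genes and a threshold of 0.05. SE is the size of a log2 value divided by the square root of its F statistic. The fit was tested on simulated data. CPM are counts scaled by the TMM-adjusted library total. Depth was 18001482 to 27261282 reads, the common coefficient of variation was 3.51%, and the median SE of the difference was 0.13. No library was treated as a duplicate, since the chi-square of replicates divided by its degrees of freedom was 2.01 to 5.70.

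Genes were named by a rule: the TAM receptors and their ligands, the 8 largest differences per direction among called genes with at least 10 reads in each group and 5 CPM in the highest, 6 per direction with opposite effects, 6 per direction with near equal effects, 6 genes with under 10 reads in a group, and up to 3 called members per list with the smallest adjusted p. The text gives part of them, and some results are not reported here. Slc7a11, Slc3a2, Tap1, Cd274, Bcl3, B2m, H2-D1, C1s1, Lbp, Nqo1, Txnrd1, Cdh1, Epcam and Krt18 were named after their values were seen. The rule, the 46 gene lists and the comparison were chosen with earlier results of these data known. Lists have no test of their own and are described by counts and medians beside those of all genes.

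The alternatives were DESeq2 1.42.0, scaling by RLE or by upper quartile, a filter of at least 50 reads in 2 libraries or none, an absolute difference of at least 1, each background fitted alone, the replicate number as a block, each library left out in turn and, added after seeing the data, the removal of trends with gene length and GC content (known for 14505 of the genes).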

Additional observations from a re-analysis of the deposited data

Results flagged for a closer look

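A difference between the effects of Tyro3 in the 2 backgrounds was called for 6776 genes by the test of the difference itself. Genes with effects in opposite directions and a positive difference were Saa3 (8.48), Lcn2 (8.32), Chil1 (7.69), Acod1 (7.33), Gbp2 (4.99) and Gbp2b (4.62), which were higher in overexpressing than in parental cells and lower in resistant than in knockout cells. Genes with a negative difference of the same kind were Krt7 (-5.47), Olfml2b (-2.57), Adm (-2.38), Nop10 (-1.90), Avpi1 (-1.68) and F3 (-1.67). Nop10, a subunit of the H/ACA ribonucleoprotein, stood at 60.6 and 62.7 CPM in parental, 29.4 and 27.2 CPM in overexpressing, 71.6 and 72.5 CPM in resistant and 42.7 and 41.3 CPM in knockout libraries. Avpi1, an arginine vasopressin-induced gene, stood at 50.4 and 47.9 CPM in parental, 25 and 24.9 CPM in overexpressing, 65.8 and 68.4 CPM in resistant and 41.3 and 41.2 CPM in knockout libraries. In both genes the parental and resistant libraries lay above the overexpressing and knockout libraries.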

How the results depend on the processing

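The count of 6776 genes was 6774 with RLE scaling, 6800 with upper-quartile scaling, 6596 with at least 50 reads in 2 libraries, 6928 with each background fitted alone, 5527 with no filter, 5230 with DESeq2, 6786 and 6799 with trends of length and of GC and length removed, and 5999 to 6356 with a library left out. Positive differences were 53.0% of those called, and 51.1% to 58.8% under the alternatives. An absolute difference of at least 1 left 1655. Opposite effects numbered 617 with DESeq2 and 795 to 886 with a library left out, and same-direction effects larger in the parental background numbered 667 with DESeq2 and 763 to 944 with a library left out. Mitochondrially encoded genes called negative numbered 2 with the length trend removed and 4 with GC and length trends removed. The cause of these changes was not tested. With the replicate number as a block 6696 genes were called. Across genes, the deviations of samples with the same number in different groups correlated at -0.0014 to 0.0342. Counting noise in each gene also lowers such correlations, so they cannot exclude that the numbers pair the samples.

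Some values changed sign. With the length trend removed they were those of Trib3 (0.0255), mt-Nd6 (0.0380) and B2m (0.0704), and with GC and length trends removed Trib3 (0.0388), Atf5 (0.0508), Tpgs2 (-0.0156), mt-Nd6 (0.0226) and B2m (0.0519). With no filter Trp53inp1 became 0.0225. With a library left out Trp53inp1 ranged from -0.0982 to 0.0969, Gadd45a from -0.0293 to 0.110, Sned1 from -0.0512 to 0.407, Cacng7 from -0.198 to 0.00983, Hsd17b7 from -0.0517 to 0.178, Tpgs2 from -0.0708 to 0.0933, Slc7a11 from -0.0213 to 0.115 and H2-D1 from -0.121 to 0.0111. Beside Tyro3 and Cyp51, calls of named genes were lost in at least 1 alternative for Cd14, Prl2c2, Prl2c3, Slco4a1, B2m, mt-Nd1, mt-Nd6, Cdh1 and Krt18. A floor of 3 reads is 0.110 to 0.167 CPM, and floors cover counting error only. In 294 called genes a group had fewer than 10 reads, and their differences are the least precise.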

Other observations

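Several lists had counts in both directions, against 24.7% positive and 22.0% negative of all genes. Aminoacyl-tRNA synthetases had 7 positive and 6 negative calls of 20, fatty acid synthesis 5 and 6 of 17, the unfolded protein response 13 and 7 of 26, glycolysis 7 and 2 of 19, and targets of p53 5 and 6 of 22. Lysosome and autophagy genes had 4 positive and 16 negative of 30, with a median difference of -0.21. Map1lc3a, of the LC3 family of autophagosome proteins, stood at 17.1 and 16.4 CPM in parental, 41.4 and 39.7 CPM in overexpressing, 60 and 62.5 CPM in resistant and 8.98 and 9.09 CPM in knockout libraries, with effects of 1.28 and 2.76 and a difference of -1.49 (SE 0.12, adjusted p = 7.89e-14). Bmf, a BH3-only activator of apoptosis, rose by 3.09 and 5.22, with a difference of -2.13 (SE 0.36, adjusted p = 3.08e-06).

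Wnt ligands and targets had 8 positive and 1 negative of 17, with 8 not called, and TGF-beta, BMP and Id genes had 9 positive and 2 negative of 22, with 11 not called, against 24.7% and 22.0% of all genes. Fzd1, a Wnt receptor, had a difference of 2.92 (SE 0.28, adjusted p = 7.05e-12) and Ctnnb1, beta-catenin, one of 0.58 (SE 0.06, adjusted p = 9.86e-12). Id1, an inhibitor of differentiation factors, stood at 208 and 199 CPM in parental, 79.4 and 82.2 CPM in overexpressing, 55.6 and 56 CPM in resistant and 276 and 269.5 CPM in knockout libraries. It was lower in overexpressing and resistant libraries than in the others, and its difference was 0.96 (SE 0.06, adjusted p = 8.96e-17). Hypoxia genes had 9 positive and 6 negative calls of 23, against 24.7% and 22.0% of all genes. Their median difference was 0.15, and the members ran from -2.38 to 3.40. The highest was Angptl4, a lipoprotein lipase inhibitor, with a difference of 3.40 (SE 0.20, adjusted p = 8.38e-19). Angptl4 stood at 35 and 31.2 CPM in parental, 7.41 and 6.37 CPM in overexpressing, 1.33 and 1.13 CPM in resistant and 61.3 and 63.1 CPM in knockout libraries.

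Genes with under 10 reads in a group included prolactin family members that were nearly absent from overexpressing and resistant cells. Prl2c3 stood at 42.5 and 42.3 CPM in parental and 70.7 and 76 CPM in knockout libraries, with 9 and 4 reads in the overexpressing and 2 and 0 reads in the resistant libraries. Its close copy Prl2c2 had no read in the resistant libraries, and reads of the copies cannot be told apart here. Rgs5, a pericyte marker, had no read in parental and resistant libraries and stood at 3.34 and 4.57 CPM in overexpressing and 1.63 and 1.56 CPM in knockout libraries.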
